A study of Mus musculus with 2 samples.

Results

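The genes described here are the nuclear-encoded genes of the mitochondrial respiratory chain, followed in innate lymphoid cells (ILCs) of the mouse gut. They were taken by symbol, as every gene of the deposited cell table whose symbol begins with Nduf, Uqcr, Cox4, Cox5, Cox6, Cox7, Cox8 or Atp5. The rule found 84 of the 17238 genes of that table, and 89 of the 31053 genes of the full matrices. By complex they were 36 genes of complex I, 8 of complex III, 16 of complex IV, 16 of complex V and 8 assembly factors of complex I (the Ndufaf genes). Ndufa4 was counted with complex IV, where its product is known to sit. The cells were sorted as IL7ra+ ILCs from C57BL/6 mice aged 8 weeks, without a genetic change or treatment beyond the word "fed" in the sample names, and were profiled by droplet-based single-cell RNA sequencing of 3′ ends. The small intestine and the colon gave 1 library each, made from 8 pooled mice. A pool of mice counts as a single sample, so no test between the tissues was possible, and every interval below is a 95% interval that covers counting error only.

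The respiratory chain moves electrons from NADH and succinate to oxygen through complexes I to IV and uses the proton gradient this builds to make ATP in complex V. Most of its subunits are encoded in the nucleus and imported, while a small core of complexes I, III, IV and V is encoded in the mitochondrial genome, so each complex is assembled from products of both genomes. Lymphocytes use the chain for ATP and for NAD+ regeneration, and several complex IV and V subunits come from small gene families whose members differ in tissue distribution.

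The table held 5490 cells of the small intestine with 15080081 unique molecular identifiers (UMIs, a count of distinct captured RNA molecules) and 7549 cells of the colon with 22332691 UMIs. The median cell had 2579 UMIs in the small intestine against 2600 in the colon. A total of 60 cell barcodes occurred in both libraries, against 56.2 expected by chance, and without those cells the summed level of the chain genes was 1.96% and 1.91%, as it was with them. Cells were also read by marker, as those with at least 1 UMI of Ccr6, Ncr1, Gata3, Klrd1 or Cd3e. In the small intestine these were 541, 1605, 1643, 172 and 429 cells, and in the colon 357, 665, 4218, 482 and 1384 cells. A cell could belong to several of these sets, and 1882 and 1615 cells belonged to none. The sets were not pure cell types. Ccr6+ cells carried the ILC3 markers (6 genes, among them Il22) at a summed 8724 CPM (counts per 1000000 UMIs) in the small intestine against 7560 CPM in the colon, and the ILC2 markers at 154 and 375 CPM. Gata3+ cells of the colon had the ILC2 markers at 1836 CPM and the ILC3 markers at 1132 CPM. Gata3+ cells of the small intestine had more of the ILC3 list (2765 CPM) than of the ILC2 list (1361 CPM). Klrd1+ cells carried as much of the T cell list as of the ILC1 and NK list in the small intestine (3426 and 3400 CPM). Cd3e+ cells had the T cell list at 6559 and 5040 CPM although the sort was labelled ILC. These sums are in part set by the choice of cells, as each list includes the marker of its set. Klrd1 gave 909 of the 3400 CPM. Gata3 gave 785 CPM in small intestine and 858 CPM in colon Gata3+ cells, Ccr6 544 and 300 CPM and Cd3e 946 and 712 CPM in theirs. Trbc1 and Trbc2 gave 771 and 835 CPM in Klrd1+ and 575 and 732 CPM in Ncr1+ cells of the small intestine. The sets are therefore named by their marker. The B and plasma cell list (6 genes) summed to 7228 CPM in all small intestine cells against 2471 CPM in all colon cells. Immunoglobulin genes and Jchain carried it, with Cd79a at 3.65 and 1.70 CPM and Ms4a1 at 0.133 and 0.179 CPM. In the marker sets the list ran from 321 CPM (Klrd1+) to 2869 CPM (Ncr1+) in the small intestine and from 114 CPM (Ncr1+) to 1701 CPM (Klrd1+) in the colon, and its part in the tissue ratios was not tested.

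Among the promoters of the chain genes, several carried the sequence elements known to bind the regulators of this gene group. RefSeq windows of 300 bases on GRCm38.p6, 250 before and 50 after the annotated start, were matched by symbol for 69 of the 84 genes (74 windows) and searched on both strands. The NRF1 core CGCATGCG was present in 11 of the 74 windows (14.9%), against 1.87% of all 32851 mouse windows. The YY1 element AAGATGGCG was present in 8 (10.8%, against 1.40%), and the GABP element CCGGAAG in 16 (21.6%, against 8.86%). The ERR element TCAAGGTCA was found in 1 window (1.35%, against 0.42%), that of Atp5g3, and in 0.27% of the windows of genes in the cell table. Against the windows of the genes in the cell table alone, the shares of the background were higher for these first 3 elements, at 3.26%, 2.47% and 14.9%. Of the 8 genes with the YY1 element, 5 were complex I subunits, as were 36 of the 84 chain genes. Among these 5, Ndufs7 and Ndufs4 had the largest tissue ratios of complex I, and a link between element and ratio was not tested. The sites of the 5 are shown with 30 bases each, 5′ to 3′ on the strand of the gene, with the YY1 letters in capitals. In each the letters lie after the annotated start, inside the transcribed sequence.
Ndufs7, chr10:80249463-80249492, plus strand: ggccgaggccAAGATGGCGgcgctggcggg
Ndufs4, chr13:114388045-114388074, minus strand: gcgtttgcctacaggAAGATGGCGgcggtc
Ndufs6, chr13:73328433-73328462, minus strand: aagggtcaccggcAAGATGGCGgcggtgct
Ndufc1, chr3:51408914-51408943, minus strand: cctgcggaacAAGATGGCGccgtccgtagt
Ndufa9, chr6:126849096-126849125, minus strand: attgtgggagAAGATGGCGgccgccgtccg

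The NRF1 core, in capitals below, stood in genes of complexes I, III, IV and V, here 1 of each. These sites show that the same 8 letters occur across the complexes, before the RefSeq start in Atp5g2, Cox6a1 and Ndufa8 and after it in Uqcrc1. The sites of Atp5g2 and Ndufa8 lie inside the longer GENCODE gene models (chr15:102662864-102672352 and chr2:36036326-36049406).
Ndufa8 (complex I), chr2:36049329-36049358, minus strand: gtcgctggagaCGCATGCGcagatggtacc
Uqcrc1 (complex III), chr9:108936668-108936697, plus strand: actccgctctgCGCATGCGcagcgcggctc
Cox6a1 (complex IV), chr5:115349101-115349130, minus strand: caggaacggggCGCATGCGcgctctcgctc
Atp5g2 (complex V), chr15:102671070-102671099, minus strand: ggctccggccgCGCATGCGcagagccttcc

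Genes with the same letters had different tissue ratios. As log2 of small intestine over colon, the 8 genes with the YY1 element had 0.61 (Ndufs7), 0.67 (Ndufs4), 0.10 (Ndufs6), 0.17 (Ndufc1), 0.17 (Ndufa9), 0.06 (Ndufaf8), 0.05 (Atp5j) and -0.05 (Atp5j2). Genes with the NRF1 core included Uqcrc1 at 0.35, Ndufa8 at 0.29, Cox6a1 at 0.03 and Atp5g2 at -0.21. The 2 genes with the largest ratios toward the colon among abundant genes are shown by the 120 bases before their annotated starts. That of Uqcrh holds the GABP letters on the other strand (CTTCCGG, in capitals), and that of Cox7a2l holds none of the 4 elements and lies inside the longer GENCODE gene model given at the end.
Uqcrh, chr4:116075071-116075190, minus strand: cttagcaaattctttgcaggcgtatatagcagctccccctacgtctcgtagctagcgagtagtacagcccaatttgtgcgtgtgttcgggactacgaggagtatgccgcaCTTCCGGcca
Cox7a2l, chr17:83514334-83514453, minus strand: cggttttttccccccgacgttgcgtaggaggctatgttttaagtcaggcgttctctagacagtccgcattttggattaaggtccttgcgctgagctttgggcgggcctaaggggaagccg

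In their sum, the 84 genes made up about the same share of all UMIs in every set of cells. They held 1.96% of the UMIs of all small intestine cells (interval 1.95 to 1.97%) and 1.91% of those of all colon cells (1.90 to 1.91%). In Ccr6+ cells the share was 1.92% in the small intestine against 1.95% in the colon, and in Ncr1+ cells 2.02% and 1.96%. Gata3+ cells had 1.94% and 1.91%, Klrd1+ cells 1.98% and 1.91%, and Cd3e+ cells 2.02% and 1.91%. The highest of these 10 marker sets stood 1.06-fold above the lowest. With mitochondrial and ribosomal protein UMIs left out of the total, the sets ran from 2.44% (Ccr6+, small intestine) to 2.85% (Gata3+, colon), a 1.17-fold range. The small intestine was the higher library in 4 of the 5 marker sets and the lower one in Ccr6+ cells, where the intervals overlapped. Within a library, single cells differed more than the sets did. From the 5th to the 95th percentile of cells the share ran from 1.33 to 2.59% in the small intestine and from 1.30 to 2.52% in the colon. After each cell was thinned to 1000 UMIs, a median of 16 of the 84 genes was detected in a small intestine cell and 15 in a colon cell, against 33 and 32 without thinning, and 0 cells lacked a chain gene UMI. The variance of the thinned sums was 1.35 and 1.33 times their mean over all cells and 1.19 to 1.71 times over the marker sets. The intervals, which assume a variance equal to the mean, are therefore too narrow.

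The direction of this small tissue difference depended on what else the RNA held. Cytosolic ribosomal protein genes made up 21.1% of UMIs in the small intestine against 28.6% in the colon, and mitochondrially encoded genes 2.50% and 2.67%. With both left out of the total, the chain genes were at 2.56% in the small intestine against 2.77% in the colon, so the colon became the higher library. The median of all 11962 genes with at least 20 UMIs stood at a log2 ratio of 0.20 (small intestine over colon). The summed chain genes stood at 0.04 (0.03 to 0.05), which is -0.16 relative to that median gene. In the marker sets the median gene stood at 0.18 (Ccr6+), 0.21 (Ncr1+), 0.16 (Gata3+), 0.16 (Klrd1+) and 0.15 (Cd3e+). In what follows a ratio is given on the scale of all UMIs, so any ratio between 0 and the median gene of its comparison turns negative relative to that gene, and higher or lower refers to all UMIs unless the median gene is named. Depth moved with the level too. In the small intestine the share went from 1.84% in cells of 1000 to 2000 UMIs to 2.04% in cells of 4000 to 8000 UMIs, and in the colon from 1.82% to 1.97%. The 18 small intestine cells above 8000 UMIs, at 1.49%, did not follow this order. Ccr6+ cells differed in depth between the libraries, with a median of 2366 UMIs in the small intestine against 3443 in the colon, and the part of depth in their ratio was not tested beyond a window of 2000 to 4000 UMIs, in which the ratio was 0.04 in place of -0.02.

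**Figure D1:**
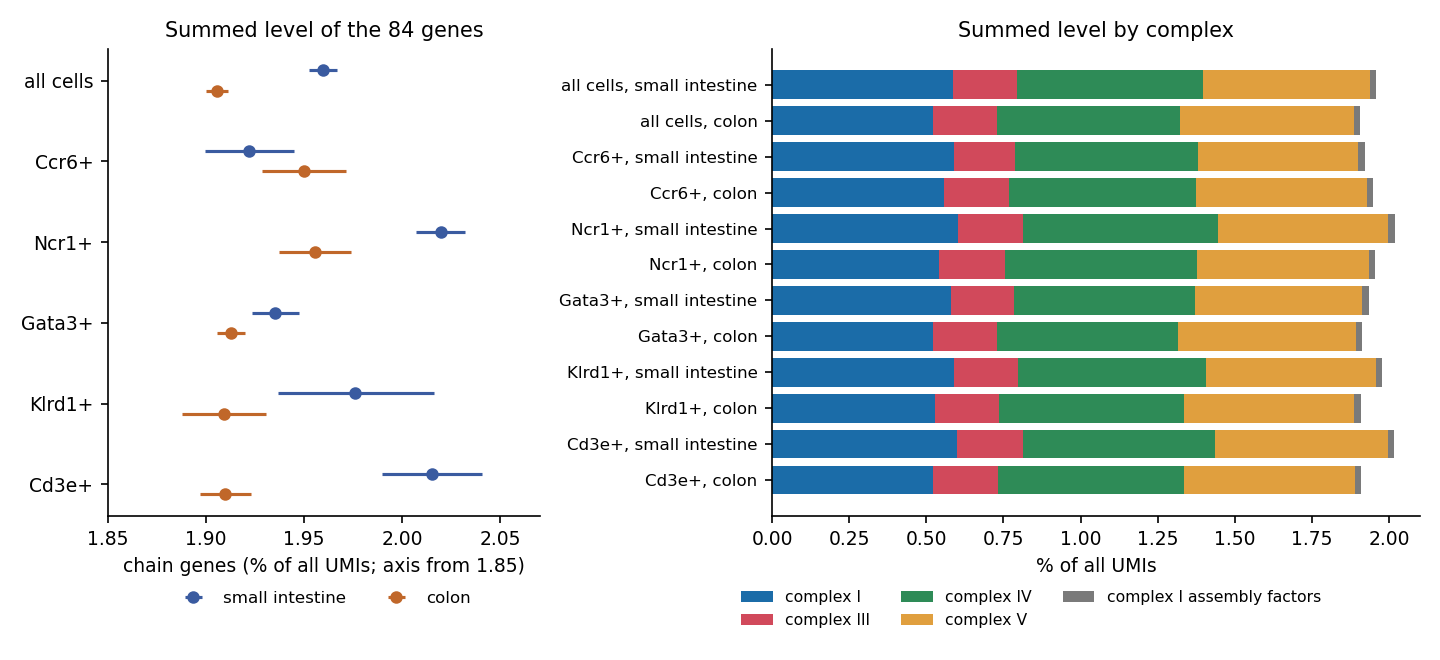
Left, summed level of the 84 respiratory chain genes as a percentage of all UMIs in all cells and in the marker-positive cells of each library; points are pooled levels, bars are exact 95% intervals for counting error, and the axis does not start at 0. Right, the same sums stacked by complex. The levels lie between 1.91% and 2.02%, and the small intestine is higher except in Ccr6+ cells; with mitochondrial and ribosomal UMIs left out of the total the colon is higher in all cells and in each marker set.

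Split by complex, the libraries differed in the balance of complex I against complex V. Complex I genes summed to 5859 CPM in the small intestine against 5221 CPM in the colon, a log2 ratio of 0.17 (0.15 to 0.18). Complex V genes, taken by the Atp5 prefix of the ATP synthase genes, summed to 5406 and 5654 CPM, a log2 ratio of -0.06 (-0.08 to -0.05). Complex III stood at 2079 and 2084 CPM (log2 ratio -0.00) and complex IV at 6036 and 5910 CPM (log2 ratio 0.03). Relative to the median gene, complexes I, III, IV and V were all lower in the small intestine, by log2 values of -0.04, -0.21, -0.17 and -0.27. The ratio of complex I to complex V does not depend on the scale. It differed between the libraries by a log2 value of 0.23 (0.21 to 0.25). In every marker set the quotient of complex I over complex V was higher in the small intestine. It was 1.14 in Ccr6+ cells of the small intestine against 1.01 in the colon, and 1.10 against 0.970 in Ncr1+ cells. Gata3+ cells had 1.07 against 0.903, Klrd1+ cells 1.07 against 0.955 and Cd3e+ cells 1.07 against 0.938. The lowest quotient of the small intestine, 1.07, was above the highest of the colon, 1.01. Complex I was 29.9% of all chain gene UMIs in the small intestine against 27.4% in the colon, and complex V 27.6% and 29.7%.

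**Figure D2:**
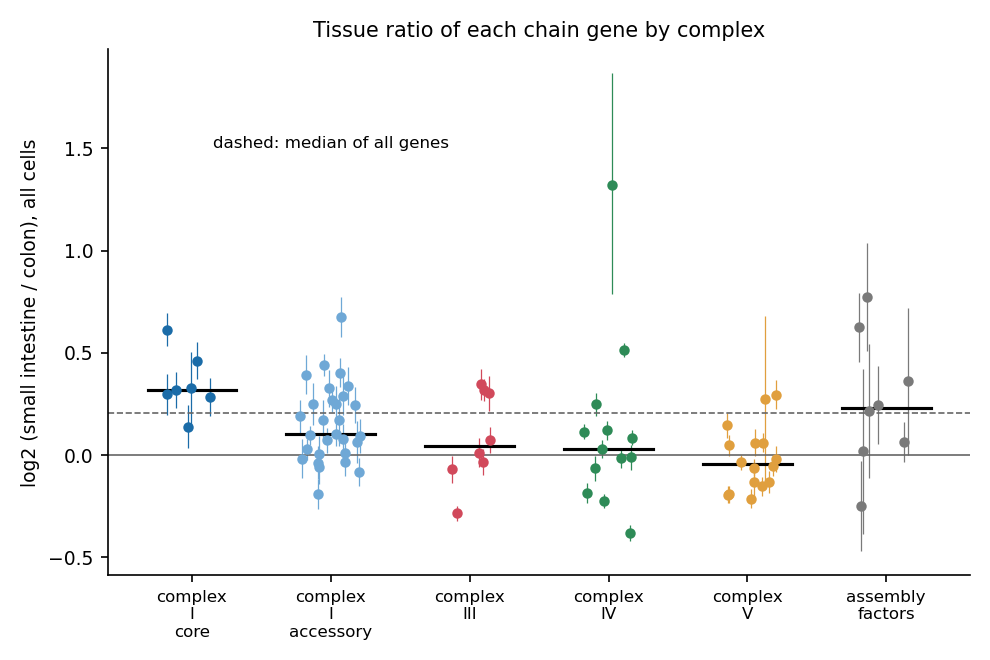
Log2 ratio, small intestine over colon, of each chain gene with at least 100 UMIs over both libraries, grouped by complex; bars are exact 95% intervals for counting error, black lines are group medians, and the dashed line is the median of all genes at 0.20. The 7 core subunits of complex I lie above 0 in every case, beside 68.2% of all genes. Of the 16 complex V genes 10 lie below 0, beside 31.8% of all genes. Relative to the dashed line most genes of complexes III, IV and V are lower in the small intestine.

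The level of single genes was also close between the libraries. Of the 84 genes, 82 reached 20 UMIs in the sum of the libraries, and of these 5 stood higher in the small intestine by 1.5-fold or more, as did 20.8% of all genes with as many UMIs. In the colon 1 gene was higher by this fold, against 9.25% of all genes. The 5 were Ndufs7, Ndufs4, Ndufaf3, Ndufaf7 and Cox7a1, and the gene higher in the colon was Cox6b2. In Ccr6+ cells 4 of 79 genes passed this fold toward the small intestine (21.9% of all genes did) and 0 toward the colon (8.23%). In Ncr1+ cells 8 of 81 passed toward the small intestine (22.8%) and 0 toward the colon (8.35%). In Gata3+ cells 5 of 82 passed toward the small intestine (18%) and 1 toward the colon (8.63%). In Klrd1+ cells these were 4 of 76 (21.1%) and 1 (10.5%), and in Cd3e+ cells 5 of 81 (16.5%) and 0 (9.73%). The members are more abundant than most genes, and whether their shares differ from those of other genes was not tested. Among the 516 genes between 200 and 1000 CPM over all cells, 13.2% passed toward the small intestine in all cells, where 6.10% of the members did. The same 2 shares were 10.1% and 5.06% in Ccr6+, 9.50% and 9.88% in Ncr1+, 11.8% and 6.10% in Gata3+, 8.33% and 5.26% in Klrd1+ and 6.01% and 6.17% in Cd3e+ cells, so they were close in Ncr1+ and Cd3e+ cells. Among all genes between 200 and 1000 CPM the median log2 ratio was 0.08, and among those between 50 and 200 CPM it was 0.19, while that of the 82 chain genes was 0.08. Ndufs4 passed the fold in all 5 marker sets, and Ndufs7 in 4 of them, at 0.39 in Ccr6+ cells.

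**Figure D3:**
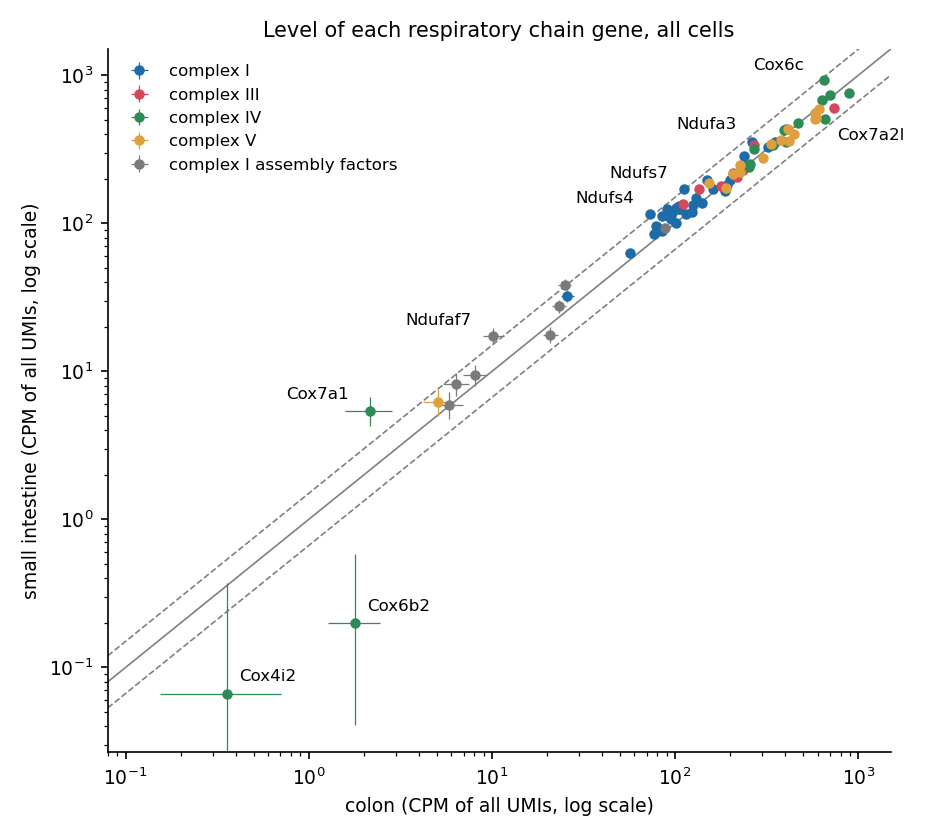
Level of each chain gene in colon cells (x axis) and small intestine cells (y axis), in CPM of all UMIs on log scales, coloured by complex; bars are exact 95% intervals, the solid line marks equal levels and the dashed lines a 1.5-fold difference. Genes above 50 CPM lie close to the line of equal levels, apart from Ndufs7 and Ndufs4 above the upper dashed line. Cox6a2, with 0 UMIs in the small intestine, is not drawn.

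Complex I takes electrons from NADH. Its nuclear genes encode 7 core subunits, which hold the flavin and the iron-sulfur clusters, and the accessory subunits around them. The 7 core genes summed to 756 CPM in the small intestine against 584 CPM in the colon, a log2 ratio of 0.37 (0.34 to 0.41), and 0.17 relative to the median gene. All 7 were higher in the small intestine, from 0.14 for Ndufv1 to 0.61 for Ndufs7, as were 68.2% of all genes, and relative to the median gene 6 of the 7 were, Ndufv1 being lower. The same 7 of 7 were above 0 in Ccr6+, Ncr1+ and Gata3+ cells (64.1%, 66.9% and 65.1% of all genes), and 6 of 7 in Klrd1+ and in Cd3e+ cells (61.6% and 62.5%). The exceptions were Ndufv2 at -0.03 and Ndufv1 at -0.07. Relative to the median gene of each set the counts were 6, 7, 6, 6 and 3 of 7 in Ccr6+, Ncr1+, Gata3+, Klrd1+ and Cd3e+ cells. Ndufs7, which carries the iron-sulfur cluster nearest to ubiquinone, was at 171 CPM in the small intestine (2579 UMIs) against 112 CPM in the colon (2496 UMIs), 1.53-fold higher (1.45 to 1.62). Over the marker sets it lay between 167 and 195 CPM in the small intestine and between 103 and 149 CPM in the colon, so the ranges did not meet. Ndufs3 stood at 125 and 90.6 CPM, a log2 ratio of 0.46. Ndufs8, another iron-sulfur subunit, was at 130 and 104 CPM. The subunits of the NADH-oxidising end were Ndufs1 (32.4 and 25.7 CPM), Ndufv1 (84.3 and 76.6 CPM) and Ndufv2 (96.4 and 78.4 CPM). Ndufs7 was the one core gene past 1.5-fold over all cells.

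The 29 accessory genes of complex I had a median log2 ratio of 0.11, below that of all genes. Their sum stood at 0.14 (0.12 to 0.15), and at -0.07 relative to the median gene. Of the 29 genes 23 were above 0, beside 68.2% of all genes, and 11 were above the median gene. Ndufs4, an accessory subunit needed for full assembly of the NADH-oxidising part, was at 116 CPM in the small intestine (1755 UMIs) against 72.9 CPM in the colon (1629 UMIs), 1.60-fold higher (1.49 to 1.71). It lay between 109 and 130 CPM in the 5 marker sets of the small intestine and between 69.7 and 81.6 CPM in those of the colon. Ndufa3, a small subunit of the membrane arm, was at 356 and 262 CPM, with a log2 ratio of 0.44. It was higher in the small intestine in each marker set, from 0.17 in Ccr6+ cells, just under the median gene there, to 0.57 in Klrd1+ cells. Ndufs5, an accessory subunit facing the intermembrane space, was at 196 and 149 CPM (0.40) over all cells, but at 213 and 210 CPM (0.02) in Ccr6+ cells. Ndufa13, also known as a cell-death regulator, was the most abundant gene of the complex at 431 and 403 CPM. Its ratio of 0.10 turns to -0.11 relative to the median gene. Ndufa2 (355 and 352 CPM) and Ndufa6 (327 and 320 CPM) came next, with ratios of 0.01 and 0.03 whose intervals held 0. The lowest ratio of the complex was that of Ndufb5, a membrane arm subunit, at 164 and 187 CPM (-0.19). Ndufa10 was at 119 and 124 CPM (-0.06) and Ndufa5 at 121 and 96.0 CPM (0.34). Levels within complex I spanned 14.6-fold over both libraries, from 28.4 CPM for Ndufs1 to 414 CPM for Ndufa13. Because 3′ libraries count a single tag per molecule, these levels were not divided by transcript length.

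Complex III passes electrons from ubiquinol to cytochrome c. Its most abundant gene, Uqcrh, encodes the hinge protein that helps dock cytochrome c. It stood at 602 CPM in the small intestine (9083 UMIs) against 733 CPM in the colon (16379 UMIs), 1.22-fold higher in the colon (1.19 to 1.25). It was higher in the colon in all 5 marker sets, at 555 to 649 CPM in the small intestine and 704 to 755 CPM in the colon. Uqcrb, a ubiquinone-binding subunit, went the other way, at 336 and 269 CPM (log2 ratio 0.32), and was the higher one in the small intestine in all 5 marker sets, though below the median gene in Ncr1+ cells (0.17). The quotient of Uqcrh over Uqcrb was therefore 1.79 in the small intestine against 2.72 in the colon, and in the marker sets 1.62 to 2.11 against 2.31 to 2.97. The core proteins Uqcrc1 and Uqcrc2 had ratios of 0.35 and 0.30, at 172 and 135 CPM and at 136 and 110 CPM. The Rieske iron-sulfur protein Uqcrfs1 had 179 and 177 CPM (0.01), and Uqcr10 229 and 234 CPM (-0.03). The near-equal sum of complex III thus held genes that differed in opposite directions. On the scale of the median gene Uqcrb, Uqcrc1 and Uqcrc2 were still the higher ones in the small intestine over all cells.

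Complex IV, cytochrome c oxidase, reduces oxygen. Its nuclear subunits surround a core that the mitochondrial genome encodes. Cox6c was the gene with the largest difference in CPM of all 84, at 929 CPM in the small intestine (14014 UMIs) against 650 CPM in the colon (14524 UMIs), 1.43-fold higher (1.40 to 1.46). It was the most abundant chain gene of the small intestine. In Ccr6+ cells it was at 1033 and 784 CPM, in Ncr1+ cells at 973 and 732 CPM, in Gata3+ cells at 806 and 636 CPM, in Klrd1+ cells at 769 and 634 CPM and in Cd3e+ cells at 770 and 634 CPM. In each pair the small intestine was higher, by log2 values of 0.28 to 0.41, which are smaller than the 0.51 over all cells. The libraries differed in their mix of cells, with 29.9% of small intestine cells and 55.9% of colon cells in the Gata3+ set, where Cox6c was lower than in Ccr6+ and Ncr1+ cells. The part of the mix in the value over all cells was not tested. Cox4i1, the ubiquitous form of the subunit that binds ATP, was the most abundant chain gene of the colon, at 886 CPM (19777 UMIs) against 758 CPM in the small intestine (11424 UMIs), 1.17-fold higher in the colon (1.14 to 1.20). The quotient of Cox6c over Cox4i1 was 1.23 in the small intestine against 0.734 in the colon. In the marker sets it ran from 1.47 (Ccr6+) to 0.914 (Klrd1+) in the small intestine and from 0.934 (Ccr6+) to 0.691 (Gata3+) in the colon. Each marker set had the higher quotient in the small intestine, and Ccr6+ cells the highest in both libraries. Cox7a2l, a factor that links complexes III and IV into supercomplexes and that C57BL/6 mice are known to carry in a shortened form, was at 504 and 656 CPM, 1.30-fold higher in the colon (1.27 to 1.34). It was higher in the colon in each marker set, with log2 ratios (small intestine over colon) from -0.04 in Cd3e+ cells to -0.40 in Ncr1+ cells. Cox8a had 740 and 697 CPM (0.09, and -0.12 relative to the median gene). Cox5b, which binds zinc, had 320 and 269 CPM (0.25), and its partner Cox5a 241 and 252 CPM (-0.06).

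Where complex IV subunits exist as isoforms, the widely expressed form was by far the more abundant, and UMIs of the other forms were few. Cox4i2, the isoform known from lung, had 1 UMI in the small intestine against 8 in the colon, against 11424 and 19777 for Cox4i1. Cox6a2, the heart and muscle isoform, had 0 and 2 UMIs, and its counterpart Cox6a1 479 and 469 CPM. Cox6b2, the testis isoform, had 3 and 40 UMIs, at 0.199 and 1.79 CPM, a log2 ratio of -3.17 (-5.51 to -1.52). In free RNA it had 0 and 2.32 CPM. Cox6b1 had 428 and 394 CPM (0.12, and -0.08 relative to the median gene). Cox7a1, the muscle isoform, had 81 and 48 UMIs, at 5.37 and 2.15 CPM, 2.50-fold higher in the small intestine (1.73 to 3.65). It was the higher one there in Ccr6+, Ncr1+, Gata3+ and Cd3e+ cells on 7 to 30 UMIs of the small intestine, and Klrd1+ cells had 0 and 3 UMIs. Cox7a2, its widespread counterpart, had 340 and 343 CPM. Cox7b had 253 and 255 CPM and Ndufa4 356 and 405 CPM (-0.18). Cox7b2, Cox8b, Cox8c and Ndufa4l2 were not among the genes of the cell table.

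Complex V makes ATP from the proton gradient. Its catalytic beta subunit Atp5b was at 506 and 579 CPM, 1.14-fold higher in the colon (1.11 to 1.18), while the alpha subunit Atp5a1 was at 432 and 414 CPM (0.06). Of the 16 genes counted for the complex by the Atp5 prefix, 10 were lower in the small intestine on the scale of all UMIs (62.5%). The same held for 31.8% of all genes and 39.7% of those between 200 and 1000 CPM. The most abundant of the 16, Atp5l, a membrane subunit, had 593 and 608 CPM (-0.04). Chain genes that the prefix misses are not in the complex V sum or in complex I over V. Among those, Usmg5 was at 688 and 584 CPM (0.24, 0.20 to 0.27) and 2010107E04Rik at 341 and 351 CPM (-0.04). Atp5h, of the peripheral stalk, had 554 and 578 CPM (-0.06), and Atp5e, the small epsilon subunit, had 517 and 590 CPM (-0.19). The c ring, through which protons pass, is encoded by 3 genes with the same mature product. Atp5g2 was the highest of the 3, at 361 and 418 CPM, 1.16-fold higher in the colon (1.12 to 1.20). Atp5g1 had 224 and 227 CPM (-0.02), and Atp5g3 had 187 and 152 CPM (0.30). The quotient of Atp5g2 over Atp5g3 was therefore 1.93 in the small intestine against 2.74 in the colon. Atp5g2 was lower in the small intestine in all 5 marker sets, from -0.11 in Cd3e+ cells to -0.30 in Ccr6+ cells, and Atp5g3 was higher there in all of them but Klrd1+ cells (-0.11), though in Ccr6+ cells (0.08) it was below the median gene. Atp5s, counted here by its prefix and the least abundant at 6.17 and 5.10 CPM, had too few UMIs to place (0.27, interval -0.14 to 0.68).

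The 8 Ndufaf genes, whose products help to build complex I and are not part of it, were far less abundant, at a median of 16.3 CPM over both libraries. Together they made up 1.11% of the chain gene UMIs in the small intestine against 0.987% in the colon. Of the 8, 7 were higher in the small intestine, beside 68.2% of all genes, and 5 were above the median gene. Ndufaf7, a mitochondrial methyltransferase, was at 17.4 CPM (262 UMIs) and 10.2 CPM (227 UMIs), 1.71-fold higher (1.43 to 2.05). It was the higher one in Ccr6+ (1.04), Ncr1+ (0.16, below the median gene), Gata3+ (0.92) and Cd3e+ cells (0.78), and the lower one in Klrd1+ cells (-0.79, on 5 and 29 UMIs). Ndufaf3 had 582 and 559 UMIs (0.62), and Ndufaf4 was at 17.6 and 20.9 CPM (-0.25).

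**Figure D4:**
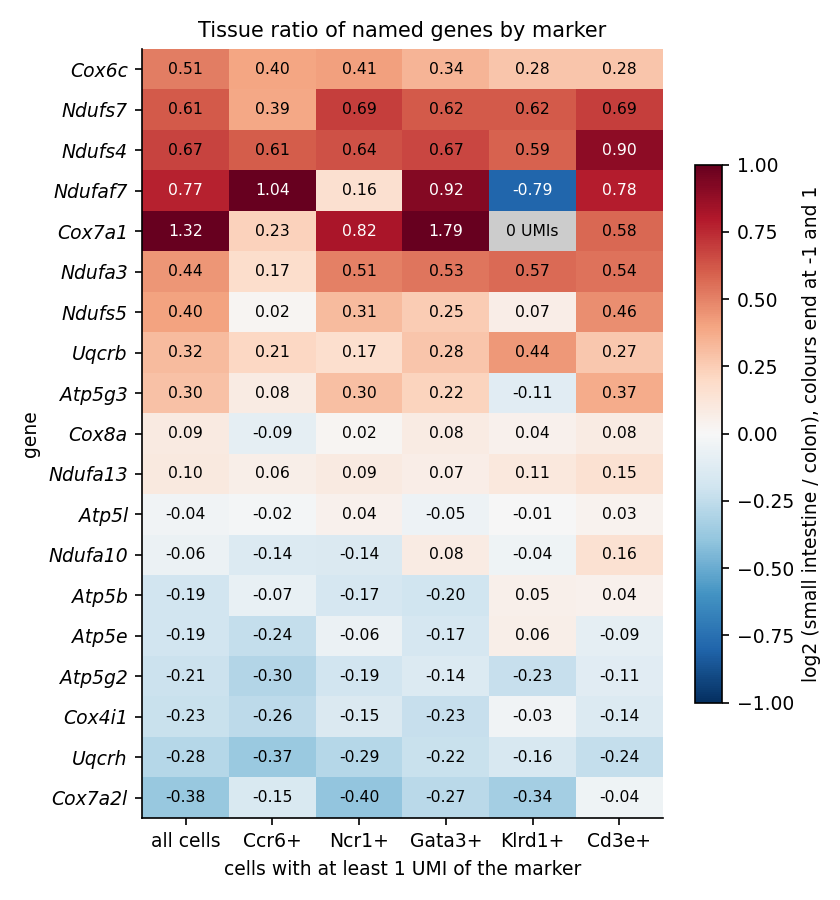
Log2 ratio, small intestine over colon, of 19 chain genes (rows) in all cells and in the marker-positive cells (columns); the number in each cell of the grid is the ratio, red is higher in the small intestine, blue is higher in the colon, and grey marks 0 UMIs in a library. Ndufs7, Ndufs4, Cox6c and Ndufa3 are above 0 and Uqcrh, Cox4i1, Cox7a2l and Atp5g2 below 0 in every column; relative to the median gene of each column smaller positive values, such as those of Cox8a, Ndufa13 and, in Ccr6+ cells, Ndufa3, turn negative.

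Between marker sets of the same library, Gata3+ and Ccr6+ cells were compared. They were the colon sets with the highest summed level of the ILC2 and of the ILC3 markers, lists that include Gata3 and Ccr6. In the small intestine 2 of 81 chain genes were at least 1.5-fold higher in Gata3+ cells, against 10.7% of all genes, and 1 in Ccr6+ cells, against 16.9%. These were Ndufa10 and Ndufaf6 (28 and 3 UMIs) toward Gata3+, and Atp5s (29 and 14 UMIs) toward Ccr6+. In the colon 1 of 82 was higher in Gata3+ cells, against 12.9%, namely Cox6b2 (25 and 1 UMIs), and 1 in Ccr6+ cells, against 18.9%, namely Cox7a1 (17 and 8 UMIs). Atp5e was at 552 CPM in Gata3+ and 410 CPM in Ccr6+ cells of the small intestine (log2 ratio 0.43, 0.30 to 0.56), and at 621 and 485 CPM in the colon (0.36, 0.25 to 0.46). Ndufa10, an accessory subunit of the membrane arm, was at 138 and 91.9 CPM (0.59) and at 130 and 101 CPM (0.37). Both genes were therefore higher in Gata3+ cells in both libraries. Cox6c went the other way in both, at 806 CPM in Gata3+ against 1033 CPM in Ccr6+ cells of the small intestine (-0.36) and 636 against 784 CPM in the colon (-0.30). So did Ndufs5, with ratios of -0.32 and -0.55, and Ndufa5, with -0.29 and -0.50. Ndufs7 had -0.21 and -0.44. Ndufa3 was higher in Gata3+ cells of the small intestine (0.37) and stood at 0.01 in the colon (-0.13 to 0.16). Uqcrc2 was lower in Gata3+ cells of the small intestine (-0.32) and stood at -0.01 in the colon (-0.23 to 0.22), and Cox7a2l had 0.10 and 0.22. The median of all genes in the same comparison stood at -0.14 in the small intestine, against -0.09 in the colon. The 7 core genes of complex I were all lower in Gata3+ cells of the small intestine, while 5 of the 7 were lower and 2 higher in those of the colon. Of all genes 61.7% and 57.3% were lower in Gata3+ cells, and relative to the median gene 6 and 4 of the 7 were. Cells with UMIs of both markers, 118 in the small intestine against 124 in the colon, were in both sets, and ribosomal protein genes took 25.1 and 30.2% of UMIs in Gata3+ against 18.8 and 24.9% in Ccr6+ cells. Their part in these ratios was not tested.

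Over the 10 marker sets of both libraries, 71 of the chain genes reached 20 UMIs in every set. The median of their highest over lowest level was 1.34-fold. It ranged from 1.11-fold to 2.02-fold, and 18 of the 71 reached 1.5-fold. Of all 3253 genes with as many UMIs 73.3% reached it, with a median of 1.75-fold, and of the 512 of these between 200 and 1000 CPM 64.3% did. Ndufs3, the widest, went from 73.5 CPM in Ncr1+ cells of the colon to 149 CPM in Ccr6+ cells of the small intestine. Ndufs7, Ndufs4, Ndufa5 and Ndufc2 followed, at 1.88, 1.86, 1.80 and 1.78-fold. The 5 widest were thus all complex I genes, as were 36 of the 84 chain genes. All these spreads include counting error, which is larger for the less abundant genes. Complex I genes had a median of 115 CPM over both libraries, against 212 CPM (III), 408 CPM (IV) and 355 CPM (V). The part of abundance in the order of the spreads was not tested.

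The rest of the pathway, taken from lists drawn up for this tissue comparison, gave the following over all cells. The list of complex II, the succinate dehydrogenase, whose genes the prefixes leave out, held subunits and assembly factors together. In it 8 of 8 genes were higher in the small intestine, with a median of 0.35, beside 68.2% of all genes above 0. The subunits were Sdha (0.44, at 190 and 140 CPM), which holds the flavin, Sdhb (0.16), Sdhc (0.36) and Sdhd (0.13). The assembly factors were Sdhaf1 (0.50), Sdhaf2 (0.34), Sdhaf3 (0.29) and Sdhaf4 (0.54). Relative to the median gene 6 of the 8 were higher, and the subunits Sdhd and Sdhb were lower. The 13 mitochondrially encoded chain genes had 6 above 0 and 7 below, beside 68.2% and 31.8% of all genes. Their median was -0.02, with a range from -0.39 (mt-Nd3) to 0.27 (mt-Atp8). Of 35 other chain and assembly genes 3 passed 1.5-fold toward the small intestine (Cox15, Cox17 and Cox20) against 2 in the colon (Cox11 and Bcs1l). These are 8.57% and 5.71% of the list, beside 20.8% and 9.25% of all genes. Cox17, a copper chaperone of complex IV, was at 251 and 164 CPM. Of the 14 enzymes of the citric acid cycle 11 were above 0, with a median of 0.23, and Suclg1 and Fh1 passed 1.5-fold toward the small intestine. These shares, 78.6% above 0 and 14.3% past the fold, stand beside 68.2% and 20.8% of all genes, and 7 of the 14 were above the median gene. Of 14 regulators of the chain 13 had at least 20 UMIs. Of these 8 were above 0 and 5 below, beside 68.2% and 31.8% of all genes. Myc, a general growth regulator, was at 15.3 and 31.4 CPM and Pprc1, a coactivator, at 3.05 and 4.70 CPM. Both were past 1.5-fold toward the colon (15.4% of the list, beside 9.25% of all genes), with an interval of -1.16 to -0.11 for Pprc1. Toward the small intestine 0 passed, and Tfam, at 34.6 and 23.2 CPM, stood just under the fold (log2 ratio 0.58, 0.40 to 0.76). The 9 mitochondrial carrier and porin genes had a median of -0.05 and the 17 glycolysis genes a median of 0.09. Against these, 84 of 90 ribosomal protein genes were lower in the small intestine, beside 31.8% of all genes, with a median of -0.44. By their medians, the complex II list with its assembly factors and the core of complex I (0.32) stood above the median gene at 0.20. Complexes III (0.04), IV (0.01) and V (-0.04), counted without assembly factors, stood below it.

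RNA outside cells carried the same genes. In barcodes with 10 to 50 UMIs, taken as free RNA, the chain genes were 2.34% of UMIs in the small intestine against 2.25% in the colon, above the level in cells. Free RNA was estimated to make up 5.35% of the UMIs in cells of the small intestine and 8.25% in the colon. Ndufs4 (154 and 89.9 CPM), Ndufs7 (205 and 129 CPM) and Cox6c (1357 and 918 CPM) were higher in the free RNA of the small intestine, and Uqcrh (683 and 881 CPM) in that of the colon, in the same order as in cells. With the expected free RNA subtracted from all cells, the log2 ratio of the summed chain genes was 0.05, against 0.04 without subtraction. Some genes also share their 3′ ends with others. Of the 84 genes, 23 shared a stretch of 60 bases of their last 400 transcript bases with another gene, and 4 shared at least 50% of them, namely Atp5l (77.7%), Ndufs3 (60.7%), Atp5h (51.6%) and Cox7c (51.0%). Their levels, and less so those of Ndufs5 (45.5%), Uqcrb (35.8%), Cox6c (25.2%, with Cox6c2) and Atp5g2 (24.6%), are uncertain to the extent that reads were assigned to a copy or dropped. Ndufs7, Ndufs4, Cox4i1 and Cox7a2l shared none. The genes lie on 19 chromosomes and are short, with a median transcript length of 743.5 bases against 2401.5 for the table. Ndufs7 is annotated at chr10:80249121-80256794, Ndufs4 at chr13:114287795-114388258, Cox6c at chr15:35925886-35938246, Uqcrh at chr4:116066965-116075071 and Cox7a2l at chr17:83501918-83517330 (mm10, GENCODE vM21).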

How the data were processed

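Each library was made with the 10x Genomics Chromium 3′ v2 kit, per the labels. The deposited values are raw UMI counts for each gene in each barcode. Per the submitters' processing notes they come from Cell Ranger 3.0.2 on the mm10 build. The authors also deposited a table of counts for chosen cells. Their rule of choice is not given in the sources used here, and its cells had at least 1111 and 1156 UMIs and at most 4.63 and 4.94% mitochondrial UMIs. Of its values 0 differed from the matrices. The libraries held 19745585 and 25548284 UMIs in all.

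The UMIs of each gene were added up over a set of cells and divided by the total UMIs of those cells (Python 3.11.15, numpy 2.4.6, scipy 1.17.1). Levels have exact Clopper-Pearson intervals and ratios exact conditional binomial ones. Both were tried on counts simulated with the variance that they assume, so the larger variance seen between cells was not covered. Ratios needed at least 20 UMIs over both groups. No doublets were left out: Scrublet (in scanpy 1.11.5) marked 0 and 1 cells, too few to count as working, so in an alternative the 241 and 456 top-scoring cells were left out.

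The members, marker and pathway lists were chosen with earlier results of these data known. Genes named in full are the 3 most abundant per complex, the 5 with the largest tissue ratio in each direction (at least 100 UMIs, by the interval bound nearest to 1), the 3 in each direction between Gata3+ and Ccr6+ cells, and the isoform sets. Others, such as the core subunits of complex I, were named after their values were seen. One core gene of complex I and 1 marker gene are counted in their groups but not reported by name here. Alternatives covered the total, the scaling, the cells, the markers, depth, free RNA, equal weight per cell, the members, the fold and the UMI minimum. Those for the complexes, for complex I over V and for some counts were added after seeing the data.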

Additional observations from a re-analysis of the deposited data

Results flagged for a closer look

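The chain genes held a larger share of the UMIs in barcodes of 10 to 50 UMIs, which lie outside the cells compared, than in cells. In these barcodes it was 2.34% in the small intestine (2.32 to 2.36%) and 2.25% in the colon (2.23 to 2.28%). The summed chain genes of Gata3+ cells stood above those of Ccr6+ cells in the small intestine and below them in the colon, with log2 ratios of 0.0100 (-0.0095 to 0.0295) and -0.0278. The same held for Klrd1+ over Ccr6+ cells, at 0.0401 and -0.0304, and for Cd3e+ over Ccr6+ cells, at 0.0682 and -0.0299. Without mitochondrial and ribosomal UMIs Gata3+ and Cd3e+ cells stood above Ccr6+ cells in both libraries, at 0.1339 and 0.0881 and at 0.1668 and 0.0367, so the opposite signs were lost. In the small intestine Gata3+ cells turned to -0.0197 in cells of 2000 to 4000 UMIs and to -0.0206 with at least 2 marker UMIs. Klrd1+ cells turned there to -0.0060 in cells of 2000 to 4000 UMIs and to -0.0026 in cells with no other marker. With 1 library per tissue these differences between tissues were not tested. All 3 pairs share the Ccr6+ cells of each library, of which there were 541 and 357.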

How the results depend on the processing

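Values are log2 ratios unless said otherwise. No paired analysis was possible because there was 1 library per tissue. For the summed genes, small intestine over colon, the main values were 0.0403 in all cells, -0.0207 in Ccr6+, 0.0465 in Ncr1+, 0.0170 in Gata3+, 0.0497 in Klrd1+ and 0.0774 in Cd3e+ cells. Without mitochondrial and ribosomal UMIs they were -0.1138, -0.1387, -0.0644, -0.0929, -0.0460 and -0.0086 in that order, and with median-ratio scaling -0.1637, -0.2051, -0.1644, -0.1434, -0.1067 and -0.0692. In cells of 2000 to 4000 UMIs all cells had 0.0602, Ccr6+ cells 0.0385 and Cd3e+ cells 0.1046. With free RNA subtracted all cells had 0.0483. In cells with no other marker Gata3+ cells had 0.0059 and Cd3e+ cells 0.1009. Of the 52 alternatives to these 6 values, 34 moved them by less than their interval, 8 moved them further and 10 reversed them.

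Against Ccr6+ cells, the total without mitochondrial and ribosomal UMIs gave 0.1339 (Gata3+), 0.0920 (Klrd1+) and 0.1668 (Cd3e+) in the small intestine and 0.0881, -0.0007 and 0.0367 in the colon. Cells with no other marker gave -0.0026 (Klrd1+) and 0.0964 (Cd3e+) in the small intestine and -0.0615 (Klrd1+) in the colon. At least 2 UMIs of the marker gave -0.0206 (Gata3+, small intestine), -0.0547 (Gata3+, colon) and -0.0641 (Klrd1+, colon). Cells of 2000 to 4000 UMIs gave -0.0197 (Gata3+) and -0.0060 (Klrd1+) in the small intestine, and 0.0312 (Ncr1+), -0.0035 (Gata3+) and -0.0051 (Cd3e+) in the colon.

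Without mitochondrial and ribosomal UMIs complexes I, III, IV and V had 0.0121, -0.1572, -0.1237 and -0.2188, and with median-ratio scaling -0.0378, -0.2070, -0.1736 and -0.2687. In cells of 2000 to 4000 UMIs complex I had 0.1953, complex IV 0.0504 and complex I over V 0.2489. Among named genes, Cox6b1 (-0.0319 and -0.0818), Cox8a (-0.0680 and -0.1179) and Ndufa13 (-0.0565 and -0.1064) turned negative under those 2 scalings, as did Cox6a1, Ndufa2 and Ndufa6, whose main intervals held 0. With free RNA subtracted Cox7a2 and Cox7b turned to 0.0010 and 0.0103, inside their intervals. Both scalings shift all genes of a comparison by a constant.

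The number of genes past 1.5-fold toward the small intestine went from 5 to 1 with median-ratio scaling and 2 without mitochondrial and ribosomal UMIs in all cells, from 4 to 2 and 2 in Ccr6+, from 8 to 1 and 3 in Ncr1+, from 5 to 2 and 2 in Gata3+ and from 4 to 1 and 1 in Klrd1+ cells. In Cd3e+ cells it went from 5 to 3 with median-ratio scaling. Toward the colon the scalings gave 1 and 1 in Ccr6+, 2 with median-ratio scaling in Ncr1+, and 2 and 2 in Klrd1+ cells, from 0, 0 and 1. At 2-fold the counts toward the small intestine were 1, 2, 0, 1, 0 and 1 in the 6 sets, beside 8.92, 7.47, 9.26, 7.42, 7.17 and 5.12% of all genes. Toward the colon 0 passed 2-fold in Klrd1+ cells, beside 4.88% of all genes. With no UMI minimum, 9 Klrd1+ genes passed toward the small intestine, and 2, 1 and 2 toward the colon in all, Ccr6+ and Gata3+ cells. For Gata3+ over Ccr6+ cells in the small intestine, 2-fold gave 1 and 0, beside 5.35 and 6.40% of all genes. There no minimum gave 3 toward Ccr6+, and 2 in the colon. The shares of all genes with no minimum and under the 2 scalings are not given here. The scalings shift all genes alike, so these changes in count are not a result about the chain genes. The Klrd1+ set had 172 small intestine cells with 469706 UMIs, and 76 of the 84 genes reached 20 UMIs in its tissue comparison.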
